A study of Mus musculus with 13 samples.

Results

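The proteasome subunit genes are the genes for the parts of the proteasome, the large protease that breaks down proteins marked with ubiquitin, together with its activators and assembly factors. They were chosen by name, as all protein-coding genes of the GENCODE M21 annotation whose symbol runs from Psma to Psmg followed by a number, without the immunoproteasome genes Psmb8, Psmb9 and Psmb10. The table held 44 such genes among its 13201 genes, all 44 passed the filter on low counts, and Psmb11, the catalytic subunit of the thymus, had no row. The rule uses names alone, though the set was proposed with earlier results of these data known. Their expression was followed in haematopoietic stem cells (HSCs), from which all blood lineages arise, sorted from MEK1-deficient (KO) and wild-type (WT) mice. MEK1, encoded by Map2k1, is a kinase that activates ERK, and the study's title asks how feedback that depends on ERK keeps these cells from exhaustion. Part of the mice had been given 5-fluorouracil (5-FU), a drug that kills dividing blood cells and after which HSCs enter division.

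The 13 libraries, each of 100 cells and made from polyadenylated RNA by Smart-seq2, fell into 4 groups. After 5-FU there were 3 KO libraries (A5, A6, A8) and 4 WT libraries (A2, A3, A4, D4). Without treatment there were 3 KO libraries (D4, D5, D6) and 3 WT libraries (D1, D2, D3), and values given library by library follow this order. How MEK1 was removed, the strain and age of the mice, the dose and timing of 5-FU and the number of animals behind a library are not stated in the sources at hand. P-values therefore cover the spread among libraries, part of which may be technical.

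The libraries held between 11416753 and 25380570 reads, apart from untreated WT D1, which was sequenced on a pair of flowcells and held 45384866. The proteasome genes had at least 170 reads in every library. A normalized count is the number of reads recovered from the deposited value, divided by the library's size factor. The targeted gene Map2k1 had reads in every KO library, with normalized counts of 328, 459.9 and 304 in KO and 604, 1634, 584 and 1573 in WT after 5-FU, and 611, 749.8 and 545 in untreated KO and 905, 1116 and 1766 in untreated WT. It was lower in KO after 5-FU (log2 difference -0.96, limma adjusted p = 0.0339), while the untreated difference of -0.69 did not pass (adjusted p = 0.46). WT D4 after 5-FU was close to WT A3 (Pearson r = 0.988 across genes, against 0.934 to 0.944 for the other pairs of that group). The 3 KO libraries after 5-FU had r of 0.966 to 0.977 with one another, and the pairs of the untreated groups 0.912 to 0.943. WT D4 was also the one library after 5-FU acquired in 2015, as the untreated libraries were, while the others after 5-FU were acquired in 2016. Whether WT A3 and D4 share cells is not stated, so counts are also given without WT D4 or with both averaged. The 10 HSC marker genes listed were all in the table, with a summed normalized count of 7886 to 8352 in KO and 11634 to 16041 in WT after 5-FU, and 16715 to 19732 in untreated KO and 20463 to 22498 in untreated WT. Single markers differed in both directions. In KO against WT after 5-FU, Kit and Slamf1 were lower and Procr was higher. In WT after 5-FU against untreated WT, Ly6a, Procr, Hlf and Fgd5 were lower and Slamf1 was higher, and in KO Kit and Ly6a were lower. Procr averaged 223 ± 37.1 in KO (SD, n = 3) and 54.7 ± 74.2 in WT (SD, n = 4) after 5-FU, and Kit 1535 ± 94.3 in KO and 4325 ± 687 in WT.

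The core of the proteasome, the 20S particle, is a barrel of stacked rings. The outer rings are built of alpha subunits, which form the gate, and the inner rings of beta subunits, of which Psmb5, Psmb6 and Psmb7 carry the proteolytic sites. The 19S particle caps the barrel: its base holds a ring of ATPases that unfold proteins and receptors that bind ubiquitin, and its lid holds Psmd14, which cuts ubiquitin off. In mammals these genes are known to be raised together when proteasome activity falls, largely through the transcription factor Nfe2l1, and HSCs are known for a low rate of protein synthesis.

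After 5-FU the proteasome genes were higher in KO than in WT HSCs as a group. Of the 44 genes, 28 were higher and 0 lower at a Benjamini-Hochberg adjusted p below 0.05 (limma, over all 12846 genes tested). Across all genes the same call was made for 5.36% in the higher and 5.50% in the lower direction. The median log2 difference between KO and WT over the 44 genes was 0.55, against -0.02 over all genes, and 42 of the 44 differences were positive. At an unadjusted p below 0.05 there were 34 genes, all higher, beside 24.8% of all genes. In 35 of the 44 genes every KO library lay above every WT library after 5-FU, which held for 13.2% of all genes, and in 0 every KO library lay below, which held for 13.8%. In 24 of the 44 the 3 KO libraries after 5-FU also lay above all the untreated libraries, against 4.76% of all genes.

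Together the 44 genes took up 1.48% to 1.53% of the reads in KO after 5-FU and 0.992% to 1.05% in WT after 5-FU. In untreated cells they held 1.07% to 1.21% in KO and 1.07% to 1.11% in WT. As a share of reads, every WT library after 5-FU thus lay below every untreated library. In summed normalized counts WT after 5-FU (159916 to 172731) overlapped untreated WT (164734 to 177964). The KO libraries after 5-FU stood above all others in each measure. Their summed normalized count was 1.504-fold that of WT after 5-FU (251787 ± 16831 against 167453 ± 5512, SD, n = 3 and 4), and 1.06-fold in untreated KO against untreated WT. The 20S genes summed to 133294 ± 6557 in KO and 88858 ± 3227 in WT after 5-FU, and the 19S genes to 84491 ± 9532 and 54469.9 ± 2797 in the same groups. The ratio of 20S to 19S reads was 1.48 to 1.65 in KO and 1.56 to 1.74 in WT after 5-FU, and 1.42 to 1.55 in untreated KO and 1.58 to 1.93 in untreated WT, so that the groups after 5-FU overlapped in it. These are levels in RNA pooled from many cells, so a larger share of cells with high levels and a higher level in each cell cannot be told apart.

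**Figure D1:**
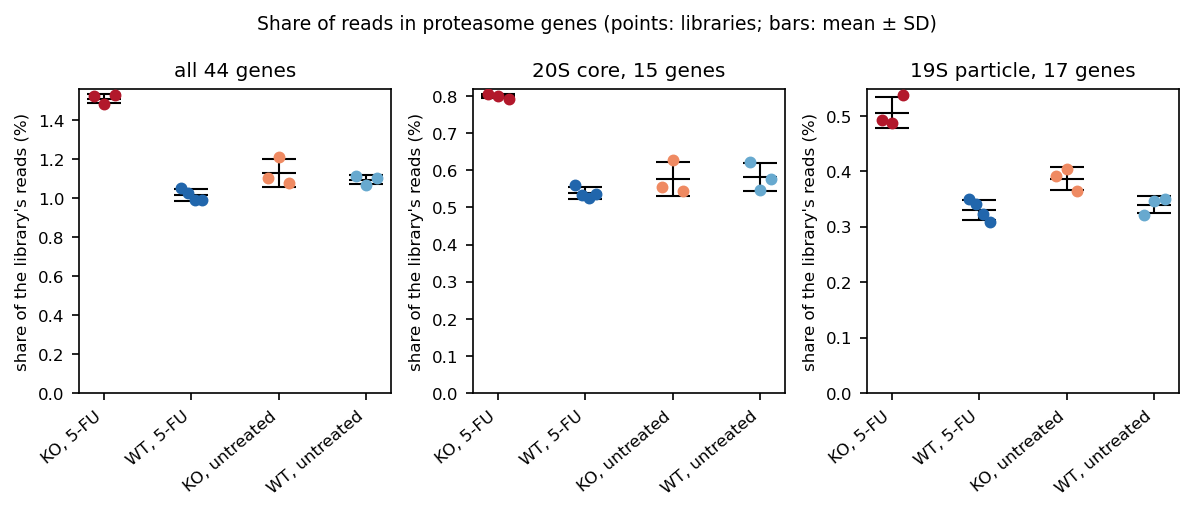
Share of each library's reads (percent, vertical axis) in all 44 proteasome genes, in the 15 genes of the 20S core and in the 17 genes of the 19S particle, for the 4 groups; points are libraries, bars the mean ± SD. In all 3 panels the KO libraries after 5-FU lie above every other library, at 1.48% to 1.53% for all genes. WT after 5-FU lies below the untreated libraries for all genes, and untreated KO lies above all WT libraries for the 19S particle.

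The promoters of 7 of these genes are printed here as the 250 bases before the RefSeq start on GRCm38.p6, in the direction of the gene. Psmd6, Psmd14 and Psma5 had the smallest p-values after 5-FU, Psme2, Psmb3 and Psma3 are, with Psmd6 and Psmd14, among the genes called in the interaction described further on, and Psmb5 carries a motif known for proteasome genes. Capitals mark a CCAAT box on either strand (Psmd14, Psmb3 and Psma3), the core CCGGAAG of ETS factors (Psmd6) or the core TGACNNNGC of the antioxidant response element, to which Nfe2l1 and Nfe2l2 bind (Psmb5), and the windows of Psma5 and Psme2 hold none of these. The windows lie at chr14:14120946-14121195, minus strand (Psmd6), chr2:61711444-61711693, plus strand (Psmd14), chr3:108256676-108256925, plus strand (Psma5), chr14:55591102-55591351, minus strand (Psme2), chr11:97703184-97703433, plus strand (Psmb3), chr12:70974373-70974622, plus strand (Psma3) and chr14:54617996-54618245, minus strand (Psmb5).
Psmd6: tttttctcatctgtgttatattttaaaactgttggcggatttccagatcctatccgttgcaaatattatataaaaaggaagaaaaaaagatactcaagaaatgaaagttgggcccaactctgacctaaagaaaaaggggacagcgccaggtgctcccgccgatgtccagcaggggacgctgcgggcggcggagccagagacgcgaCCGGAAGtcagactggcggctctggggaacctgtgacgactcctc
Psmd14: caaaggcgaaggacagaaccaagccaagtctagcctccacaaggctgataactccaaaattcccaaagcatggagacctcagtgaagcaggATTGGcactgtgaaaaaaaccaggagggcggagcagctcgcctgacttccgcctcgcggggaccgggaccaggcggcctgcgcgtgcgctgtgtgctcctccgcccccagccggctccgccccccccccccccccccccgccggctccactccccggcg
Psma5: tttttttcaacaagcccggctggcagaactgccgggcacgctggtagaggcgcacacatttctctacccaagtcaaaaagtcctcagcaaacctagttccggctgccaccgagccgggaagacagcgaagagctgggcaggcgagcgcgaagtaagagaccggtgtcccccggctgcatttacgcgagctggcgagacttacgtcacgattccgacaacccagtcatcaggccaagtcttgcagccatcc
Psme2: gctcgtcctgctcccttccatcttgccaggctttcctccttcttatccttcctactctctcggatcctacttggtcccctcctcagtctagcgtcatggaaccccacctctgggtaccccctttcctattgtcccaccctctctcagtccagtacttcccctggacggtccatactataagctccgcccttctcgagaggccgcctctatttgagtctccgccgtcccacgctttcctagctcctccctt
Psmb3: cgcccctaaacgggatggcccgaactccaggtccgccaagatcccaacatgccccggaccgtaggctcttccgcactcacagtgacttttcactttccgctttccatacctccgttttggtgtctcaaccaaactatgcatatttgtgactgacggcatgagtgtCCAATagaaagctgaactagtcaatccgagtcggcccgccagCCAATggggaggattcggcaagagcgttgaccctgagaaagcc
Psma3: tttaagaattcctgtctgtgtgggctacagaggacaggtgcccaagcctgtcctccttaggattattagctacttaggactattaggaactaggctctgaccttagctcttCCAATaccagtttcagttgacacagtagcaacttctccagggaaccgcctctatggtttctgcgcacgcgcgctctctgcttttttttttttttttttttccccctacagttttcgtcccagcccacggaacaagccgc
Psmb5: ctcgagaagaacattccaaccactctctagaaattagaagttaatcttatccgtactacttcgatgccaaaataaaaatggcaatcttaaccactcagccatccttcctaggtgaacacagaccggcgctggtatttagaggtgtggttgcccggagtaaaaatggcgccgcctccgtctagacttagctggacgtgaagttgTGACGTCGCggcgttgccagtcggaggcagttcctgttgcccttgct

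Such windows, with a RefSeq start within 500 bases of the GENCODE start, were at hand for 33 of the 44 genes and for 8351 genes in all. Each motif was searched on both strands. TGACNNNGC was found in 4 of the 33 (12.1%, in Psmb5, Psmb6, Psmc6 and Psmd12) and in 12.3% of all windows. CCAAT was found in 12 of the 33 (36.4%) and in 37.5% of all. CCGGAAG was found in 11 of the 33 (33.3%) and in 15.4% of all, and no member's matches to different motifs overlapped. Of the genes with a window that were higher in KO after 5-FU, 8 of 24 held CCGGAAG, and of the others 3 of 9. For TGACNNNGC these counts were 4 of 24 and 0 of 9, and for CCAAT 9 of 24 and 3 of 9. A match is a run of letters and does not show that a factor is bound there.

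Among the alpha subunits, 7 of 8 were higher in KO after 5-FU, with a median log2 difference of 0.63. Psma3 (ENSMUSG00000060073, chr12:70974621-70996347, plus strand, GRCm38), which forms part of the outer ring, had normalized counts of 7517, 6223 and 7434 in KO and 3948, 4549, 4001 and 3589 in WT after 5-FU. Its counts were 4174, 4494 and 3716 in untreated KO and 3808, 3923 and 4313 in untreated WT. The 3 KO libraries after 5-FU stood above every other library, and the other 3 groups overlapped. The difference after 5-FU was 0.76 ± 0.129 on the log2 scale (SE), a 1.76-fold difference of means, at an adjusted p of 0.00109.

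For Psma5, Psma2 and Psma7, further parts of the outer ring, the KO libraries after 5-FU were likewise the highest. Psma5 had normalized counts of 11616, 12525 and 13469 in KO and 8244, 7713, 7236 and 7475 in WT after 5-FU, and of 7915, 9865 and 8077 in untreated KO and 8313, 7945 and 8339 in untreated WT. Psma2 had 11440.1, 11939.9 and 12848 in KO and 7369, 7471, 7679 and 7687 in WT after 5-FU, and 7882, 9717 and 8597 in untreated KO and 7512, 6867 and 7459 in untreated WT. For both genes untreated KO D5 was the highest library outside the KO group after 5-FU, and for Psma2 every untreated KO library also lay above every WT library. Psma7 had 12578, 13099 and 15057 in KO and 7074, 8717, 8004 and 9268 in WT after 5-FU, and 9012, 10434 and 9555 in untreated KO and 9959.8, 7558 and 8859 in untreated WT. KO A8 was the highest library for Psma7 and untreated KO D5 again the highest of those outside the KO group after 5-FU. The log2 differences after 5-FU were 0.68 ± 0.114 for Psma5, 0.65 ± 0.11 for Psma2 and 0.69 ± 0.129 for Psma7 (SE), at adjusted p = 0.00101, 0.00106 and 0.00223 in limma. Psma6, Psma4 and Psma1 were also higher, by log2 0.62, 0.56 and 0.42 at adjusted p = 0.00414, 0.00854 and 0.0383. Psma8, an alpha subunit known from testis, was the exception, at 228, 379.7 and 931 in KO and 255, 411, 309 and 338 in WT after 5-FU (adjusted p = 0.58). Its 3 KO libraries spread further than the gap between the groups.

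Of the beta subunits, 6 of 7 were higher in KO after 5-FU, with a median log2 difference of 0.50. All 3 catalytic genes were among them. Psmb7 (ENSMUSG00000026750, chr2:38588036-38644087, minus strand), which gives the trypsin-like site, had normalized counts of 5560.1, 5943 and 6308 in KO and 2834, 3445, 3436 and 3707 in WT after 5-FU, and of 3368, 3599.9 and 3292 in untreated KO and 3325, 4085 and 3662 in untreated WT. The KO libraries after 5-FU were well above the rest, which overlapped, and the difference after 5-FU was 0.76 ± 0.129 on the log2 scale (SE, adjusted p = 0.00106). Psmb7 shares 405 exon bases with Nek6 on the other strand. Nek6 itself had 418, 582 and 341 in KO and 103, 1.45, 0 and 0.664 in WT after 5-FU. Whether the counting used the strand is not given, and the part of Nek6 reads in the Psmb7 difference was not tested.

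Psmb5, which gives the chymotrypsin-like site, had 8082, 8281 and 8846 in KO and 7389.8, 5557, 5023 and 5711 in WT after 5-FU, and 5504, 6462 and 4682 in untreated KO and 5326, 4572 and 5282 in untreated WT. WT A2 came closest to the KO libraries after 5-FU, while the other WT libraries lay among the untreated ones. Psmb6, which gives the caspase-like site, had 9720.2, 9513 and 10434 in KO and 8104, 6536, 6204 and 6827 in WT after 5-FU, and 7373, 8800.0 and 6213 in untreated KO and 7668, 8093 and 7637 in untreated WT. KO libraries after 5-FU were again the highest, and untreated KO D5 came next. The differences were 0.49 ± 0.143 for Psmb5 and 0.50 ± 0.131 for Psmb6 on the log2 scale (SE), at adjusted p = 0.0369 and 0.0215. Neither call held without WT D4, with WT A3 and D4 averaged or in 7 further settings, and the highest adjusted p over the 24 other settings was 0.272 for Psmb5 and 0.136 for Psmb6. Psmb3, a structural beta subunit, had 8723, 8061 and 8550.2 in KO and 5542, 4957, 4711 and 5377 in WT after 5-FU, and 4925, 6029.9 and 4706 in untreated KO and 5305, 5403 and 5365 in untreated WT. Its untreated WT libraries lay closest together of all 44 genes (coefficient of variation 0.921%), and the difference after 5-FU was 0.68 ± 0.12 on the log2 scale (SE, adjusted p = 0.00148). Psmb4 and Psmb2 were higher by log2 0.53 and 0.49 (adjusted p = 0.0135 and 0.0285). Psmb1 was not called, at 10308 ± 227 in KO and 9272 ± 712 in WT after 5-FU (log2 0.15, adjusted p = 0.421).

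**Figure D2:**
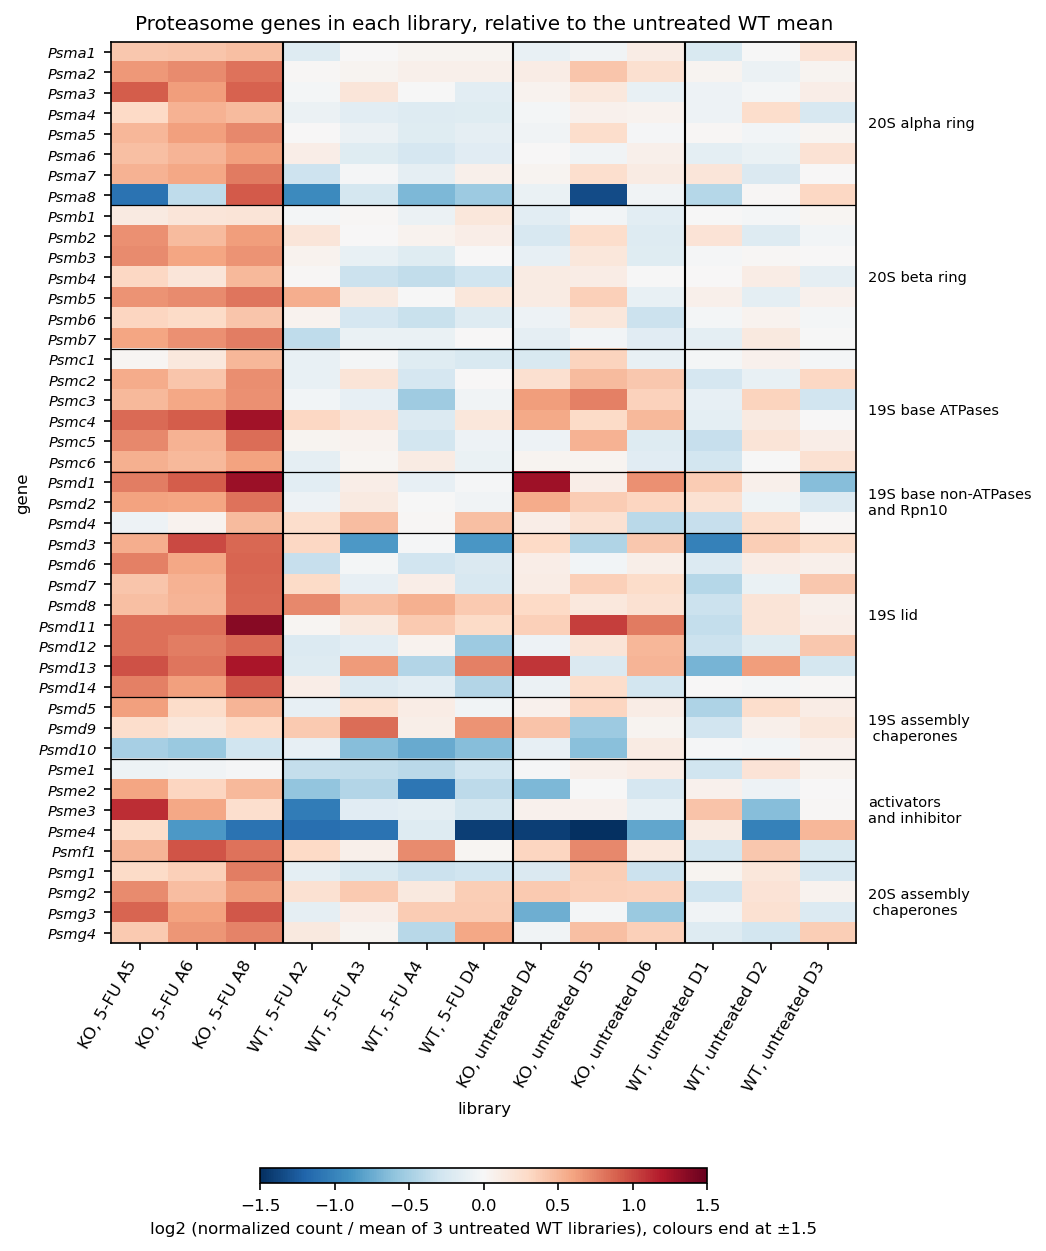
Normalized count of each of the 44 proteasome genes (rows, by role) in each of the 13 libraries (columns, by group), as log2 of its ratio to the mean of the 3 untreated WT libraries, with the colour scale ending at ±1.5. The 3 KO columns after 5-FU are red in most rows, while Psmd10 and Psme1 stay near or below the untreated WT mean. Psmd11 and Psmd1 are also red in untreated KO libraries.

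The ATPases of the 19S base, which unfold the substrate and thread it into the barrel, were higher for 5 of 6 genes, with a median log2 difference of 0.62. Psmc4 had 6634, 6912 and 8779 in KO and 4567, 4227, 3174 and 4131 in WT after 5-FU, and 5455, 4491 and 5148 in untreated KO and 3309, 4029 and 3672 in untreated WT. KO A8 was the highest library, and all untreated KO libraries lay above all untreated WT libraries. The difference after 5-FU was 0.83 ± 0.147 on the log2 scale (SE, adjusted p = 0.00148). Psmc3, Psmc5, Psmc2 and Psmc6 were higher by log2 0.69, 0.69, 0.55 and 0.52, at adjusted p = 0.0114, 0.0149, 0.026 and 0.019. In untreated cells their KO minus WT differences were 0.54, 0.09, 0.36 and -0.02 in the same order, none called. Between 5-FU and untreated KO cells they were 0.01, 0.56, 0.17 and 0.53, of which only Psmc6 was called. Psmc1 did not pass in KO against WT after 5-FU, at 6812 ± 1177 in KO and 5234 ± 313 in WT (log2 0.35, adjusted p = 0.143).

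The large scaffold subunits Psmd1 and Psmd2 were higher in KO after 5-FU, and the ubiquitin receptor Psmd4 was not. Psmd2, on which ubiquitin receptors and shuttle factors dock, had 5569.6, 5550.2 and 6457 in KO and 3481, 4032, 3649 and 3545 in WT after 5-FU, and 5412, 4777 and 4583 in untreated KO and 4312, 3523 and 3175 in untreated WT. Its KO libraries exceeded the WT libraries within each treatment, without overlap. Psmd4, also called Rpn10, had 2729, 2974 and 3991 in KO and 3444, 3959, 2919.5 and 3937 in WT after 5-FU, and 3072, 3368 and 2176 in untreated KO and 2264, 3447 and 2911 in untreated WT. All 4 groups overlapped for Psmd4, and the KO mean after 5-FU was 0.906-fold the WT mean. The log2 difference was 0.62 ± 0.132 for Psmd2 and -0.13 ± 0.181 for Psmd4 (SE), at adjusted p = 0.00597 and 0.704. Psmd1, the largest difference of this role, averaged 2886 ± 543 in KO and 1395 ± 115 in WT (log2 0.87 ± 0.224, adjusted p = 0.0187); it shares exon bases with neighbouring genes.

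Of the lid genes, 5 of 8 were higher in KO after 5-FU, and their median log2 difference of 0.74 was above that of the other roles. Psmd6 (ENSMUSG00000021737, chr14:14112174-14120984, minus strand), a scaffold subunit of the lid whose promoter with its CCGGAAG stands above, had normalized counts of 6673, 5894 and 7227 in KO and 3127, 3868, 3238 and 3405 in WT after 5-FU. In untreated cells it had 4229, 3862 and 4193 in KO and 3431, 4280.4 and 4161 in WT. The KO libraries after 5-FU were far above the others, and Psmd6 had the smallest p of the set after 5-FU (0.88 ± 0.13 on the log2 scale, SE, adjusted p = 0.000381). Psmd14 (ENSMUSG00000026914, chr2:61711694-61800376, plus strand), the deubiquitinase, had 8737, 7924 and 9889 in KO and 5581, 4504, 4657 and 3811 in WT after 5-FU, and 4875, 6232 and 4275 in untreated KO and 5221, 5099.9 and 5245 in untreated WT. KO libraries after 5-FU exceeded all others, with untreated KO D5 next, and the difference was 0.88 ± 0.148 on the log2 scale (SE, adjusted p = 0.000961). Psmd12 averaged 3608 ± 96.5 in KO and 1789.8 ± 296 in WT after 5-FU (log2 0.89, adjusted p = 0.00335). Psmd3 averaged 2481 ± 381 and 1176 ± 487 in the same groups, the largest log2 difference of the lid (0.93, adjusted p = 0.0392). Its WT libraries spread widely, with A3 and D4 at 776 and 772 and A2 at 1757. Psmd3, Psmd11 (log2 0.61, adjusted p = 0.0445) and Psma1 each lost the call in 11 of 24 other settings. Psmd7 (log2 0.54), Psmd13 (0.56) and Psmd8 (0.08) were not called, at adjusted p = 0.0577, 0.196 and 0.792.

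Among the factors that assemble, activate or inhibit the particle, 0 of 3 chaperones of the 19S base, 1 of 4 chaperones of the 20S core and 2 of 5 activators and inhibitors were called after 5-FU. Of the 19S chaperones only Psmd5 reached an unadjusted p below 0.05. Psmd5 had the largest difference among them, 5040.1 ± 586 in KO against 3771 ± 442 in WT (log2 0.38, adjusted p = 0.142). Psmd9 had 1427, 1343 and 1467 in KO and 1561, 2132, 1264 and 1895 in WT, and Psmd10 averaged 1346 ± 126 and 1279 ± 272. Of the chaperones of the 20S core, Psmg1 was higher (3843 ± 707 in KO against 2307 ± 128 in WT, log2 0.64, adjusted p = 0.0211). Psmg2, Psmg3 and Psmg4 had positive differences of 0.29, 0.45 and 0.35 that did not pass (adjusted p = 0.204, 0.124 and 0.285).

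Of the paired subunits of the ring-shaped activator that opens the barrel without ATP, Psme2 was higher in KO after 5-FU and Psme1 was not called. Psme2 (ENSMUSG00000079197, chr14:55587441-55591113, minus strand), whose product forms this activator with that of Psme1 and is known to be induced by interferon, had normalized counts of 6080.1, 5021 and 5618 in KO and 2671, 2964, 1892 and 3067 in WT after 5-FU. Its untreated counts were 2517, 4018 and 3375 in KO and 4205, 3819 and 4031 in WT. KO libraries after 5-FU were the highest, and the WT libraries after 5-FU lay at the low end with untreated KO D4. On the deposited log2 scale the difference was the largest of all 44 genes (0.99 ± 0.169, SE, limma adjusted p = 0.00111). As a ratio of means it was 2.104-fold, beside 2.109-fold for Psmd3. Psme1 averaged 6366 ± 129 in KO and 5136 ± 152 in WT after 5-FU, without overlap but not called (log2 0.29, adjusted p = 0.153). Psme3, which forms a nuclear activator, was higher (1967 ± 603 in KO against 945 ± 242 in WT, log2 0.83, adjusted p = 0.025). The activator gene Psme4 and the inhibitor gene Psmf1 were not called, with log2 differences of 0.29 and 0.37 (adjusted p = 0.618 and 0.242).

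**Figure D3:**
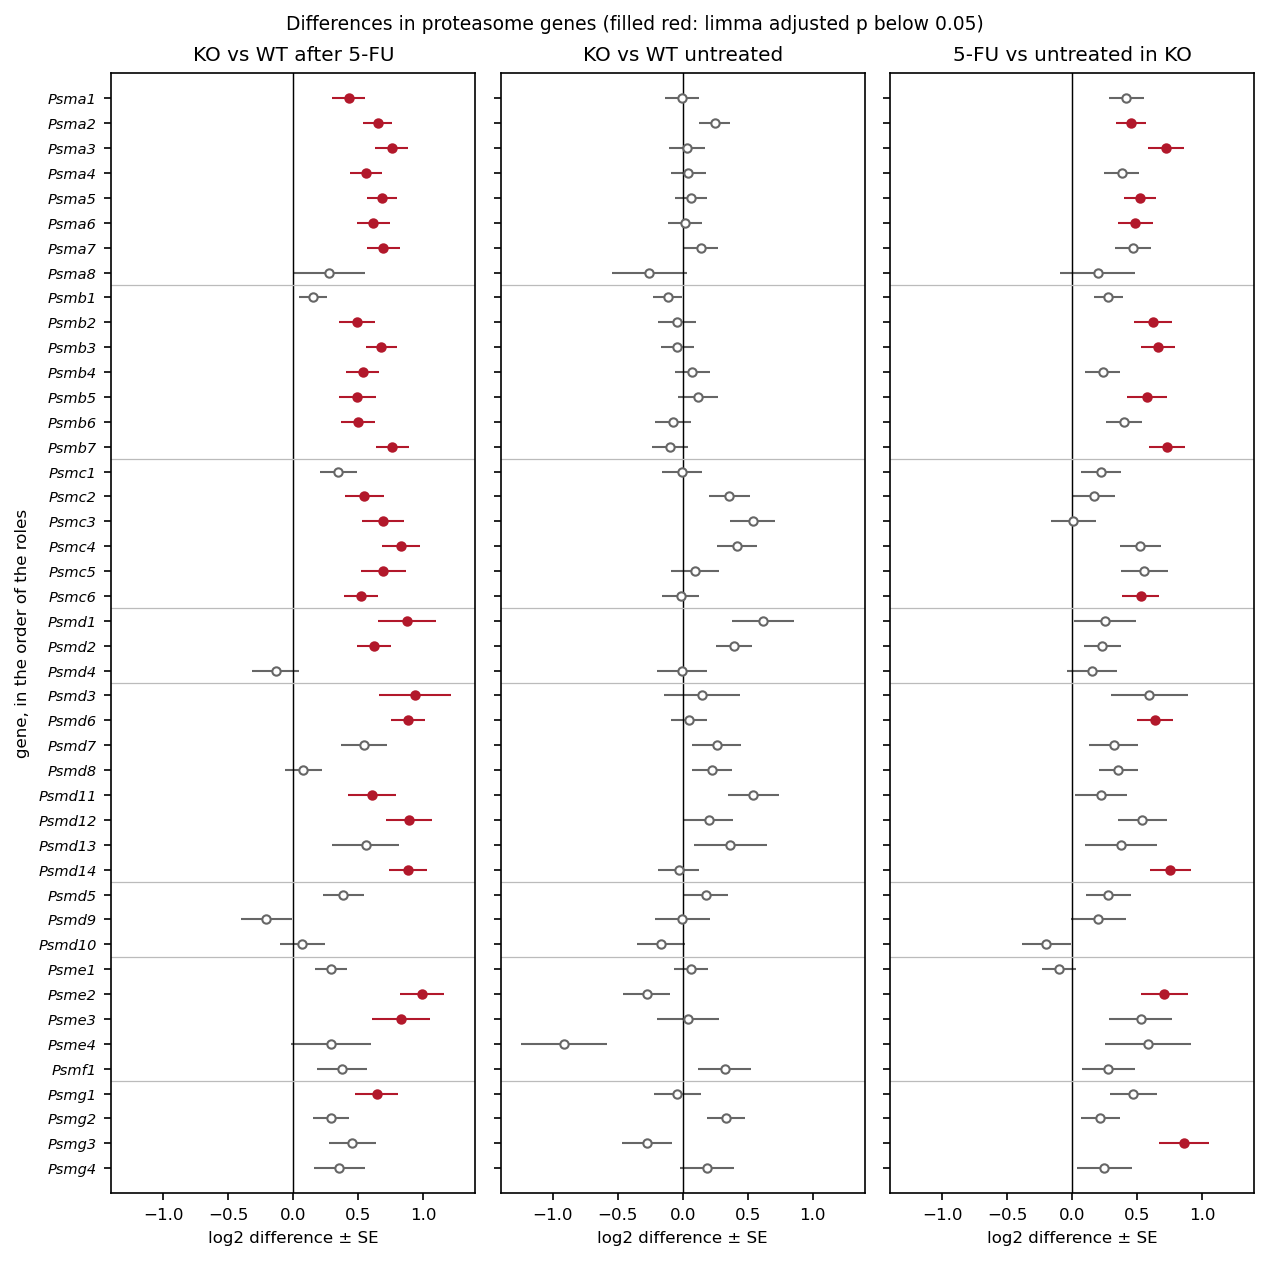
Log2 difference ± SE (horizontal axis, deposited scale) of each proteasome gene (vertical axis, by role) for KO against WT after 5-FU, KO against WT untreated, and 5-FU against untreated in KO; filled red points passed an adjusted p below 0.05 in limma. Red points fill most of the left panel (28 genes), none the middle one, and 13 the right one, with all called genes to the right of 0.

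The count of 28 moved with the normalization and with the libraries used. With quantile normalization Psma1, Psma4, Psmb2, Psmb4, Psmb5, Psmb6, Psmc2, Psmc6 and Psmd2 lost the call. Leaving out KO A8, A6 or A5 after 5-FU gave 15, 16 or 18 calls, leaving out WT D4, so that only libraries of 2016 were compared, gave 19, and averaging WT A3 and D4 gave 22. The 12 genes Psma2, Psma3, Psma5, Psma6, Psma7, Psmb3, Psmb7, Psmc4, Psmd6, Psmd12, Psmd14 and Psme2 stayed called under all 24 other fits. In normalized counts KO A8 was the highest of the 3 KO libraries after 5-FU for 33 of the 44 genes. As a share of the reads, the 44 genes held 1.520% in KO A5, 1.481% in A6 and 1.526% in A8.

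Other features differed between the same groups. The summed normalized count of 8 genes of dividing cells was 49957 to 54145 in KO and 25678 to 32398 in WT after 5-FU, and 28565 to 35365 in untreated KO and 17968 to 24582 in untreated WT; 4 of the 8 were higher in KO after 5-FU. Of 8 megakaryocyte and platelet genes, 7 were in the table and 6 were lower in KO after 5-FU, with sums of 4166 to 7150 in KO and 29442 to 51840 in WT after 5-FU, and of 3784 to 7393 in untreated KO and 3477 to 5105 in untreated WT. All 8 erythroid genes were in the table, with sums of 1245 to 1494 in KO and 4526 to 6451 in WT after 5-FU. Their sums were 1417 to 2036 in untreated KO and 991 to 1758 in untreated WT. Of 8 neutrophil and monocyte genes 7 were in the table, with sums of 2252 to 2397 in KO and 3999.7 to 5787 in WT after 5-FU. Untreated sums of these genes were 4410 to 4957 in KO and 4507 to 5164 in WT. WT after 5-FU thus overlapped the untreated libraries, and KO after 5-FU lay below them. After 5-FU 4 of these genes were lower in KO, and Csf1r had a positive difference that was not called (log2 0.26). Of 5 B cell genes 2 were in the table, and they summed to 549.6 to 784 in KO and 1162 to 1942 in WT after 5-FU. Their sums were 1200 to 1634 in untreated KO and 888 to 2326 in untreated WT. Of 5 T and NK cell genes Cd3e, Cd3g, Cd8a and Trac had no row. The remaining gene had 1697 to 3810 in KO and 5763 to 6737 in WT after 5-FU. It had 1481 to 3448 in untreated KO and 1763 to 4435 in untreated WT. Of 5 mast cell and basophil genes Ms4a2 and Mcpt8 had no row. The other 3 summed to 257 to 806 in KO and 1875 to 2354 in WT after 5-FU. Their sums were 291 to 335 in untreated KO and 172 to 1299 in untreated WT. The part of these cell types, and of division, in the difference of the proteasome genes was not tested.

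In untreated cells the question was whether the loss of MEK1 alone was accompanied by a change in these genes, and 0 of 44 were called by limma or by limma-voom on the recovered reads. Across all genes 0.0311% were called in this comparison, 0.0234% higher and 0.00778% lower. Every KO library lay above every WT library for 6 of the 44 genes and below for 1, which held for 5.88% and 5.67% of all genes. At an unadjusted p below 0.05 there were 8 genes, 7 of them higher in KO, beside 10% of all genes (1291 of 12846). The median log2 difference was 0.06, against 0.00 over all genes. The smallest p-values belonged to the ATPase Psmc3 (4312 ± 610.4 in KO against 2870.3 ± 668 in WT, log2 0.54 ± 0.173, adjusted p = 0.301), the scaffold Psmd2 (log2 0.40 ± 0.141, adjusted p = 0.344) and the activator Psme4 (log2 -0.91 ± 0.33, adjusted p = 0.348). Psmc3 and Psmd2 did not overlap between the groups and Psme4 did. The log2 differences of the catalytic genes were 0.12 for Psmb5, -0.07 for Psmb6 and -0.10 for Psmb7, and those of Psmd14 and Psmd4 were -0.03 and -0.0035, each no larger than its SE (0.138 to 0.193). The median was 0.23 over the 17 genes of the 19S particle and 0.02 over the 15 of the 20S core, which were not tested against each other.

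Within KO cells, 5-FU libraries were compared with untreated libraries, and 13 of 44 genes were higher and 0 lower, where 2.78% of all genes were called higher and 3.14% lower, 5.92% in either direction. The groups did not overlap, with 5-FU higher, for 27 of the 44 genes, beside 14.2% of all genes. The median log2 difference was 0.41, against -0.01 over all genes, and 42 of the 44 differences were positive. The 13 were Psma2, Psma3, Psma5 and Psma6 of the outer ring, Psmb2, Psmb3, Psmb5 and Psmb7 of the inner ring, the ATPase Psmc6, the lid genes Psmd6 and Psmd14, the activator Psme2 and the chaperone Psmg3. Of these, 12 were also among the 28 higher in KO than in WT after 5-FU, a comparison that uses the same KO libraries, and Psmg3 was not. Psmb7, with the smallest p, averaged 5937 ± 374 after 5-FU and 3419.8 ± 161 untreated (log2 0.73 ± 0.138, adjusted p = 0.00453). Psma3, Psmb3, Psmd14 and Psmd6 had log2 differences of 0.72, 0.66, 0.75 and 0.64 (adjusted p = 0.00486, 0.00542, 0.00898 and 0.0114).

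Psmg3, which helps to build the alpha ring, had the largest difference between 5-FU and untreated KO cells. Its normalized counts were 1248, 1031 and 1293 in KO after 5-FU and 408, 667 and 462 in untreated KO, a 2.32-fold difference of means (log2 0.86 ± 0.193, adjusted p = 0.0132), and it shares exon bases with an annotated neighbour. Psmb2, Psma5, Psme2, Psma2, Psmb5, Psmc6 and Psma6 had differences of 0.63, 0.52, 0.71, 0.45, 0.58, 0.53 and 0.49, with adjusted p between 0.0165 and 0.0398. Psmb6, Psmd2 and Psmd4 were not called, at 0.40, 0.23 and 0.15 (adjusted p = 0.105, 0.386 and 0.722). The largest differences of the remaining roles were those of Psmc5 (0.56, adjusted p = 0.0837), Psmd1 (0.26, 0.609) and Psmd5 (0.28, 0.393). With the year of acquisition as a term the count was 0, and 7 genes in all were called. All KO libraries after 5-FU come from 2016 and all untreated KO libraries from 2015, so within KO the year and the treatment cannot be told apart. Leaving out KO A5, A6 or A8 after 5-FU or untreated KO D4 or D6 left 5, 7, 4, 5 and 4 genes called.

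In WT cells, 1 of the 44 genes was called for 5-FU against untreated, Psmd8, a lid subunit, which averaged 6794 ± 684 after 5-FU and 4712 ± 840.1 untreated (log2 0.50 ± 0.142, adjusted p = 0.0425). Of all genes 3.72% were called higher and 2.96% lower, 6.68% in either direction. The groups did not overlap for 1 gene that was higher and 3 that were lower after 5-FU, beside 8.80% and 7.92% of all genes. The median log2 difference was -0.03 over the 44 genes and -0.0022 over all. Psmd8 counts were 7737, 6432, 6831 and 6176 in WT after 5-FU and 3777, 5404 and 4954 in untreated WT, without overlap. Its call was lost under 13 of 24 other settings, among them leaving out any one WT library after 5-FU. The next smallest p-values were those of Psme2 (log2 -0.56 ± 0.169, adjusted p = 0.0596) and Psme1 (-0.32 ± 0.124, adjusted p = 0.13), which form one activator and lay lower after 5-FU without overlap. The differences of the catalytic genes were 0.20 for Psmb5, -0.17 for Psmb6 and -0.13 for Psmb7, and those of Psmd14, Psmd2 and Psmd4 were -0.16, 0.01 and 0.29, none called. In the other roles the largest differences were those of Psma8 (-0.33), Psmb4 (-0.22), Psmc3 (-0.14), Psmd10 (-0.43), Psme4 (-0.62) and Psmg2 (0.26), with adjusted p of 0.152 or more.

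The difference between the genotype effects was tested as an interaction, the KO against WT difference after 5-FU less the same difference in untreated cells. It was called for 6 of 44 genes, all higher, where 1.04% of all genes were called higher and 1.80% lower (2.84% in either direction), and its median over the 44 genes was 0.44 on the log2 scale, against -0.01 over all genes. Psme2 had the largest value, 1.27 ± 0.247 (SE, adjusted p = 0.0127), from a KO minus WT difference of 0.99 after 5-FU and of -0.28 untreated. Psmb7 had 0.86 ± 0.189 (0.0227), Psmd6 0.83 ± 0.19 (0.0278) and Psmd14 0.92 ± 0.216 (0.0308), with the limma adjusted p in parentheses. Psmb3 had 0.72 ± 0.175 (adjusted p = 0.0365) and Psma3 0.72 ± 0.188 (adjusted p = 0.0494). All 6 were also called in KO against WT after 5-FU and in 5-FU against untreated in KO, which use the same KO libraries after 5-FU. Their untreated KO minus WT differences lay between -0.28 and 0.05. Psmb5, Psmb6, Psmd2 and Psmd4 were not called, at 0.37, 0.57, 0.22 and -0.13 (adjusted p = 0.39, 0.125, 0.617 and 0.856). Psme2 alone stayed called under all 23 other settings. Of these settings Psma3 lost the call in 21, Psmb3 in 13, Psmd14 in 11, Psmd6 in 9 and Psmb7 in 4. The count fell to 1 without KO A8 after 5-FU or untreated KO D4 or D6, to 2 without KO A5 or A6 or WT D4 after 5-FU or untreated WT D3, and to 3 without WT A3 after 5-FU or untreated WT D2.

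**Figure D4:**
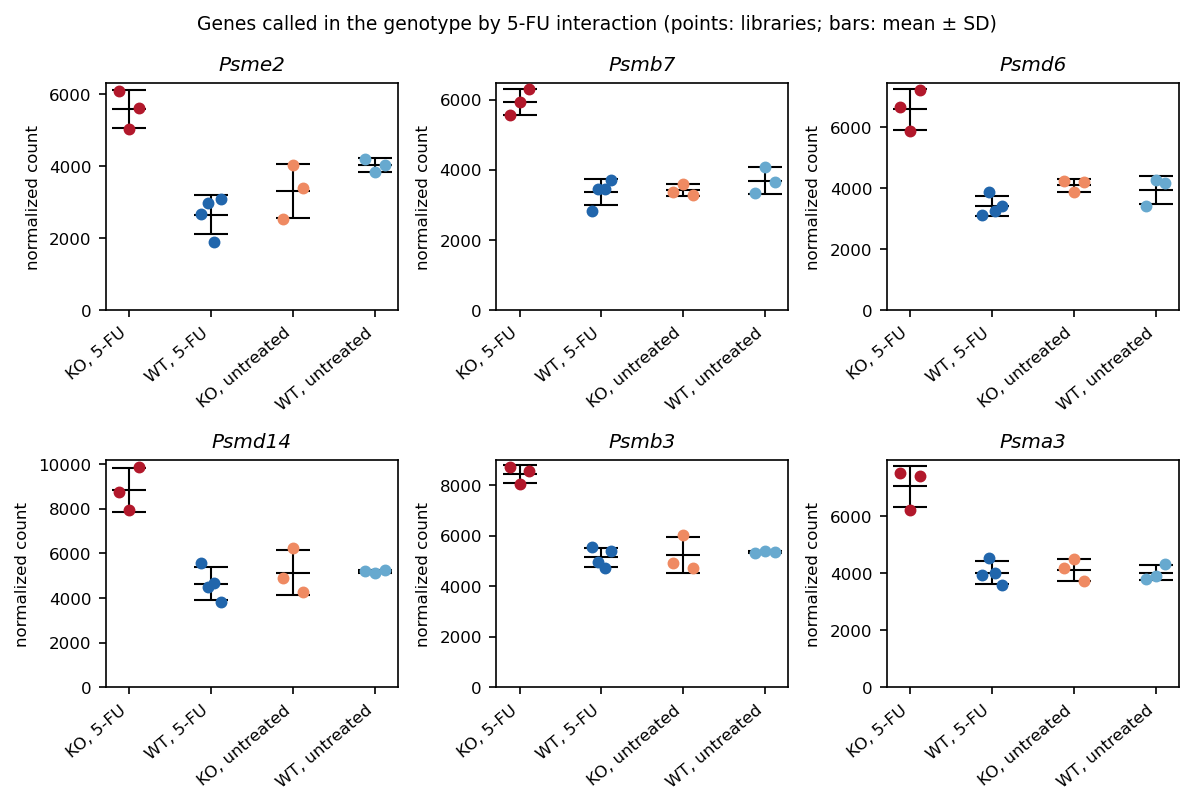
Normalized counts (vertical axis, from 0) of the 6 genes called in the interaction, for the 4 groups; points are libraries, bars the mean ± SD. For each gene the 3 KO libraries after 5-FU lie above every other library, and for Psme2 the WT libraries after 5-FU average 2648, below the untreated WT mean of 4018.

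Levels can be compared between genes only per length of exons. Per kilobase, the genes of the 20S core apart from Psma8 spanned 5.59-fold in KO and 6.95-fold in WT after 5-FU, and 6.53-fold in untreated KO and 6.22-fold in untreated WT. Psmb2 (9707.7 per kilobase in KO after 5-FU), Psma5 (9490.1) and Psmb5 (9347) were the highest, and Psmb7 (1735) and Psma3 (1813) the lowest. The testis subunit Psma8 lay far below, at 206 per kilobase in KO and 132 in WT after 5-FU, and 151 in untreated KO and 198 in untreated WT. In the lid Psmd14 led after 5-FU in KO (3138 per kilobase) and Psmd11 was the lowest (232). Among the ATPases Psmc2 was the lowest in all 4 groups, at 1092 in KO and 726 in WT after 5-FU. The exon length of a gene covers all its annotated isoforms, so genes with long rare exons are set too low. The spread between libraries of a group, as the coefficient of variation of the normalized count, had a median over the 44 genes of 9.89% in KO and 11.6% in WT after 5-FU, and 13.9% in untreated KO and 15.9% in untreated WT.

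**Figure D5:**
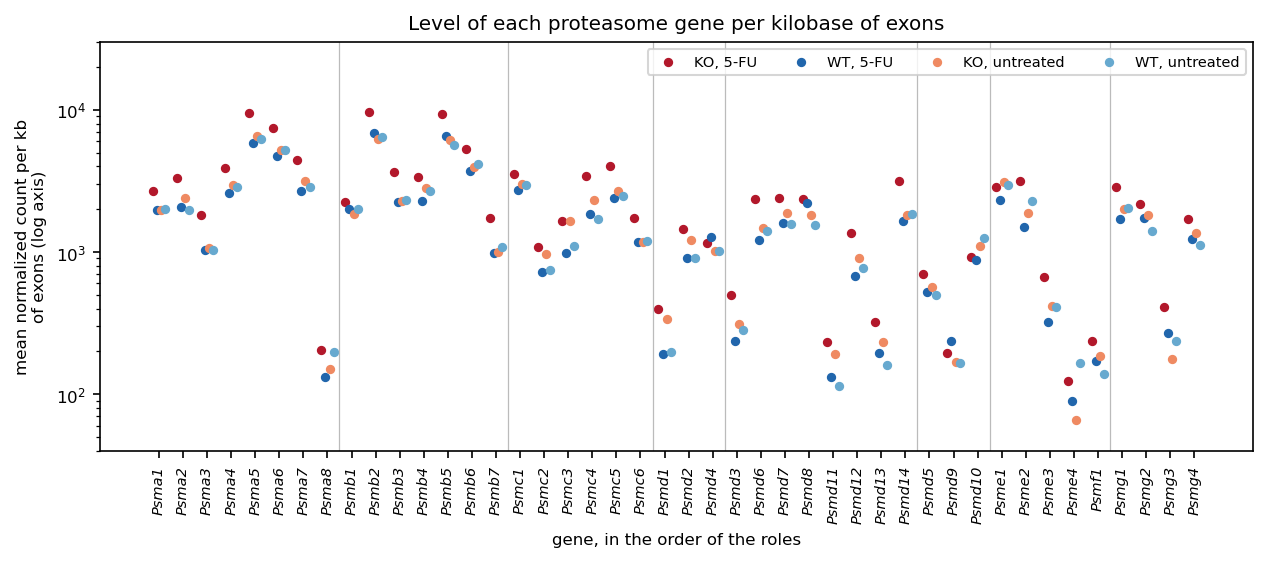
Mean normalized count per kilobase of exons (log axis) of each of the 44 proteasome genes, in the order of their roles, with 1 point per group. Psmb2, Psma5 and Psmb5 are the highest, Psme4, Psmd9, Psma8, Psmd11 and Psmf1 lie lowest, and the KO mean after 5-FU is the highest of the 4 for most genes.

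Other genes of the pathway, 30 of 31 listed in the table (Paaf1 had no row), were counted in the same way. After 5-FU 3 were higher in KO than in WT, and the median log2 difference over the list was 0.18. Usp14, a deubiquitinase bound to the 19S particle, had 4659.9, 3660.0 and 5038 in KO and 2546, 2093, 1976 and 1773 in WT after 5-FU, and 1656, 2441 and 2432 in untreated KO and 2888, 2074 and 2635 in untreated WT. Its KO libraries after 5-FU stood above all others, and the log2 difference was 0.96 ± 0.172 after 5-FU (adjusted p = 0.00154) and 1.16 ± 0.252 in the interaction (adjusted p = 0.0205). Uba1, the enzyme that activates ubiquitin, and Vcp, the ATPase that delivers unfolded ubiquitinated proteins, were higher by log2 0.62 and 0.52 (adjusted p = 0.042 and 0.0172). The ubiquitin gene Ubb was lower. It had 45025, 47149 and 60861 in KO and 67802, 83823, 79188 and 69626 in WT after 5-FU, and 82571, 89001 and 88372 in untreated KO and 61486, 79855 and 79585 in untreated WT. Its log2 difference after 5-FU was -0.56 ± 0.128 (adjusted p = 0.00923), in the opposite direction to the 28 proteasome genes called.

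The immunoproteasome genes Psmb8, Psmb9 and Psmb10, which replace the catalytic subunits in immune cells, were called in none of the 5 comparisons. Their log2 differences after 5-FU were 0.24, 0.21 and -0.00 for KO against WT. Psmb8 averaged 6824 ± 759 in KO and 5709.7 ± 474 in WT after 5-FU, and Psmb10 4113 ± 325 and 4144 ± 551. Of Nfe2l1, Nfe2l2 and the genes Ngly1 and Ddi2 that process Nfe2l1, none was called in any comparison. Nfe2l1 itself had 112, 141 and 143 in KO and 19.7, 269, 141 and 351 in WT after 5-FU. Between 5-FU and untreated WT cells, Sem1, a small lid subunit (log2 0.78, adjusted p = 0.0142), and the ubiquitin gene Rps27a (0.36, 0.046) were higher. In KO cells Usp14 was higher (0.92, 0.00649) and Ubb lower (-0.77, 0.00324) after 5-FU.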

How the data were processed

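RNA-seq was made from 13 libraries of 100 sorted HSCs. Per the submitters' processing notes, the authors trimmed reads with Trimmomatic, aligned them to mm10 with Bowtie 1.1.1 and normalized with DESeq2. The deposited table holds variance-stabilized log2 values per gene, made by the authors. Inverting that transformation gave whole reads, within 0.1, for 100% of genes in all 13 libraries. How reads on both strands were counted is not given in the sources used here.

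Genes reaching a normalized count of 10 in 3 or more libraries (12846) were tested on the deposited values with limma 3.58.1 (R 4.3.3), with 1 mean per group over all 13 libraries and a mean-variance trend. Differences on this scale understate the change of genes with low counts. P-values were two-sided and Benjamini-Hochberg adjusted over all genes. The difference between genotype effects was a contrast of the same fit. Promoters came from RefSeq (GRCm38.p6), and near-identical copies (at least 95% identity over 300.0 bases) from BLAST 2.17.0: 8 proteasome genes have one, Psma3 and Psmd11 with the copy in the table, and 11 share exon bases with another gene. Named were all genes called in a comparison (or the 3 smallest p where under 5 were), the largest difference of each role after 5-FU and for 5-FU against untreated, and Psmb5, Psmb6, Psmb7, Psmd14, Psmd2 and Psmd4. The members and lists were chosen with earlier results of these data known. Alternatives were other scalings, filters, added constants, limma-voom on the reads, acquisition date as a term and each library left out. Some listed genes outside the proteasome set are not reported here.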

Additional observations from a re-analysis of the deposited data

Results flagged for a closer look

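In WT after 5-FU, the one group large enough for the check of single libraries, WT A2 stood apart from the other 3 for 4 of 46 groups of values tested. Chance flags about 1 in 20 where libraries are separate and values independent. WT A3 and D4 were close to each other (Pearson r = 0.988) and all values came from the same libraries, so that share is no firm yardstick. The normalized count of WT A2 was 5164 for Psma1 and 586 for Psme3, below the others, and 5257 for Psmb4 and 1683 for Psmd10, above the others.

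The KO minus WT difference after 5-FU less that in untreated cells passed limma's test of the difference for 6 genes (log2). It was 1.27 for Psme2, 0.92 for Psmd14, 0.86 for Psmb7, 0.83 for Psmd6, 0.72 for Psma3 and 0.72 for Psmb3. Only Psme2 kept this call under all 23 other settings, and Psma3 lost it in 21 of them.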

How the results depend on the processing

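No call reversed in any of the 25 settings tried, of which scaling to total reads was chosen after seeing the data. No paired analysis was possible because the groups compared share fewer than 2 replicate numbers. For KO against WT after 5-FU, leaving out 1 library gave 15 to 29 genes called. Quantile normalization lost part of the calls in that comparison, as named above, and lowered the median log2 difference to 0.41. For 5-FU against untreated in KO, the count was 6 with quantile normalization, 0 with acquisition date as a term and 4 to 16 with 1 library left out. In WT it was 2 with quantile normalization, with limma-voom or at an adjusted p below 0.1, 3 with scaling to total reads, 0 with only the libraries compared, with WT A3 and D4 averaged or with a date term, and 0 to 1 with 1 library left out. The interaction gave 3 with quantile normalization or with WT A3 and D4 averaged, 2 with acquisition date as a term and 1 to 6 with 1 library left out. It has no value with only the libraries compared, since it uses all 4 groups. For KO against WT untreated the count was 0 in every setting. The cause of these changes was not tested.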
